A study of Mus musculus with 6 samples.

Results

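The genes described here are 43 mouse genes with roles around the differentiation of spermatogonia and meiosis. They were chosen by a fixed list of symbols covering KIT and retinoic acid handling, differentiation factors, meiotic entry, meiotic cohesin, the synaptonemal complex and meiotic recombination, and 43 of the 32285 genes of the deposited table carry them. Meiosin and Iho1 appear under the older symbols Gm4969 and Ccdc36 and were found through RefSeq synonyms. RNA was sequenced from germline stem cells, the cultured form of spermatogonial stem cells, of 1 line named DBA-GFP GS cell with a wild-type genotype. Cells of the control group were in complete medium, and those of the pyruvate group in a medium labelled 8 mM pyruvate; each group had 3 libraries. All libraries share the line and the genotype. The labels give neither the rest of the medium's composition nor the culture behind each library, so the spread behind the p-values is that between libraries and may be technical.

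In the testis, undifferentiated spermatogonia either renew themselves or respond to retinoic acid, after which they make the receptor KIT and become differentiating spermatogonia. Retinoic acid also induces Stra8, whose product works with MEIOSIN to switch on the meiotic programme. In meiosis, germ-cell cohesin holds the chromosomes, SPO11 cuts them, the recombinase DMC1 acts in repair, and the synaptonemal complex joins the paired chromosomes. In stem cells many meiotic genes are held back by a variant Polycomb complex that reaches DNA through E2F6 and the E-box factors MGA and MAX.

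Sequences before the RefSeq start of 4 members show the kinds of short motif searched for in these genes. Each run is the 250 bases before the RefSeq start (GRCm38.p6), written 5′ to 3′ on the gene's strand, and capitals mark a motif match. Cyp26a1 (chr19:37697558-37697807, plus strand) and Stra8 (chr6:34920698-34920947, plus strand) are shown because both are textbook retinoic acid targets. Sohlh2 (chr3:55181794-55182043, plus strand) is shown for a match to the STRA8-MEIOSIN type motif. Tex12 (chr9:50561269-50561518, minus strand) is shown for holding both an E2F6-type motif and an E-box. The gene starts differ in another annotation, GENCODE M21. There Stra8 starts at 34920163, so its whole run lies inside the gene. Cyp26a1 (37697798), Sohlh2 (55182028) and Tex12 (50561325) start within their runs.
Cyp26a1: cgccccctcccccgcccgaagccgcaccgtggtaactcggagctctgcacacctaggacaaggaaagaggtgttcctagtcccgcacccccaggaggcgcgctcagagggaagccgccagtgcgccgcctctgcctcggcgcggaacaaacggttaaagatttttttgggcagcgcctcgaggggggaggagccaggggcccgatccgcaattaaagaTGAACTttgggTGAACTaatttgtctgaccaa
Stra8: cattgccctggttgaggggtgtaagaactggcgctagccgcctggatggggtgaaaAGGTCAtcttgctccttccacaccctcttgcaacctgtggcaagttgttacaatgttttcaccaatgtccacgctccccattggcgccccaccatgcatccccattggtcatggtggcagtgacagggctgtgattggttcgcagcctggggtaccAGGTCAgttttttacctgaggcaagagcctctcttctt
Sohlh2: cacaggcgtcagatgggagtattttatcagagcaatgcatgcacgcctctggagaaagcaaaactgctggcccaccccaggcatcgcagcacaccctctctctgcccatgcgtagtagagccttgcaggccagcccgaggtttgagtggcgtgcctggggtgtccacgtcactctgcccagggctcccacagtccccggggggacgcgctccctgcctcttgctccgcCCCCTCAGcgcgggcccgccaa
Tex12: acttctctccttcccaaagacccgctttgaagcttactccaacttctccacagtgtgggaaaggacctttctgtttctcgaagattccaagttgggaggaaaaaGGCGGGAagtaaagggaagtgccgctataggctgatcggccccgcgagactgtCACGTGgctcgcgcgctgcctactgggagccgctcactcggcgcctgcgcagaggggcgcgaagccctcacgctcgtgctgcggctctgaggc

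In Cyp26a1 the capitals are a pair of retinoic acid receptor half-sites of the form AGTTCA, read on the opposite strand, with 5 bases between them and the nearer one ending 16 bases before the start. In Stra8 they are 2 half-sites of the form AGGTCA, beginning 194 and 38 bases before the RefSeq start. Sohlh2 carries CNCCTCAG 22 bases before the start, and Tex12 carries GGCGGGA and CACGTG, which begin 146 and 93 bases before it. RefSeq held 45 promoters for 35 of the members, and both strands were searched. GGCGGGA was in 12 of these 45 promoters (26.7%), against 17.4% of the promoters of all tested genes and 9.75% of all RefSeq promoters. CACGTG was in 10 (22.2%, against 8.31% of promoters of tested genes and 6.02% of all), and CNCCTCAG in 5 (11.1%, against 7.34% and 6.42%). At least 1 half-site of either form was in 9 (20%, against 18.7% and 24.2%), and at least 2 in 2, those of Cyp26a1 and Stra8 (4.44%, against 2.07% and 3.70%). Several promoters of 1 gene can overlap, and a match to letters is a description of the sequence only.

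Library totals ran from 20918312 to 26413080 counts, and the floor of 3 counts lay at 0.116 to 0.143 CPM (counts scaled to a fixed library total after TMM, a factor that aligns the bulk of genes between libraries). Floors cover counting error only. Both groups held a library that stood apart: on the first principal component (38.9% of the variance) control replicate 2 lay at 36.5 and pyruvate replicate 1 at -27.2, while the other 4 libraries lay between -4.64 and 0.81. Control replicate 2 held high levels of AT-rich and long transcripts. Over 14908 tested genes, Spearman's rho between its deviation from the 6-library mean and GC content was -0.56, and with exon length 0.41; in pyruvate replicate 1 rho with GC content was 0.43. Values without one of them are given where leaving it out changed the call of a member. They are given for only some of the members whose sign turned or whose difference moved by a large factor. For the 18 members whose sign turned with any library left out, the range over those fits is given at the end.

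All 43 members had counts in all 6 libraries, and all 43 passed the filter on low counts. The fewest counts were 3, for Cyp26b1 in control replicate 3. Mean levels were at least 100 CPM for 9 members and under 5 CPM for another 9. Per length (CPM per kb of exon, mean of 6 libraries), the highest levels belonged to the transcription factor genes Dmrt1 at 196 and Sohlh2 at 145. The ranges of these genes over the libraries, 184 to 209 and 130 to 160, overlapped neither each other nor the next gene. Stra8 (67.3), Syce1 (63.96), Crabp1 (61.02), Tex14 (60.9), Stag3 (53.02), Syce2 (53.02), Rhox13 (51.9) and Sohlh1 (45.96) followed, and the ranges of neighbours in that order overlapped. Of the 42 neighbouring pairs in the whole order, 4 did not overlap. The lowest levels per length were those of Cyp26b1 (0.072), Mybl1 (0.28), Meiosin (0.56), Spata22 (0.81), Prdm9 (1.013), Ccna1 (1.10) and Spo11 (1.21). Genes of the cohesin and synaptonemal complex groups lay between 8.02 (Hormad2) and 63.96 (Syce1) per kb, and those of break formation between 1.013 (Prdm9) and 8.64 (Iho1), apart from Rec114 at 29.7. In bulk RNA, fewer cells of a type and less RNA per cell cannot be told apart.

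**Figure D1:**
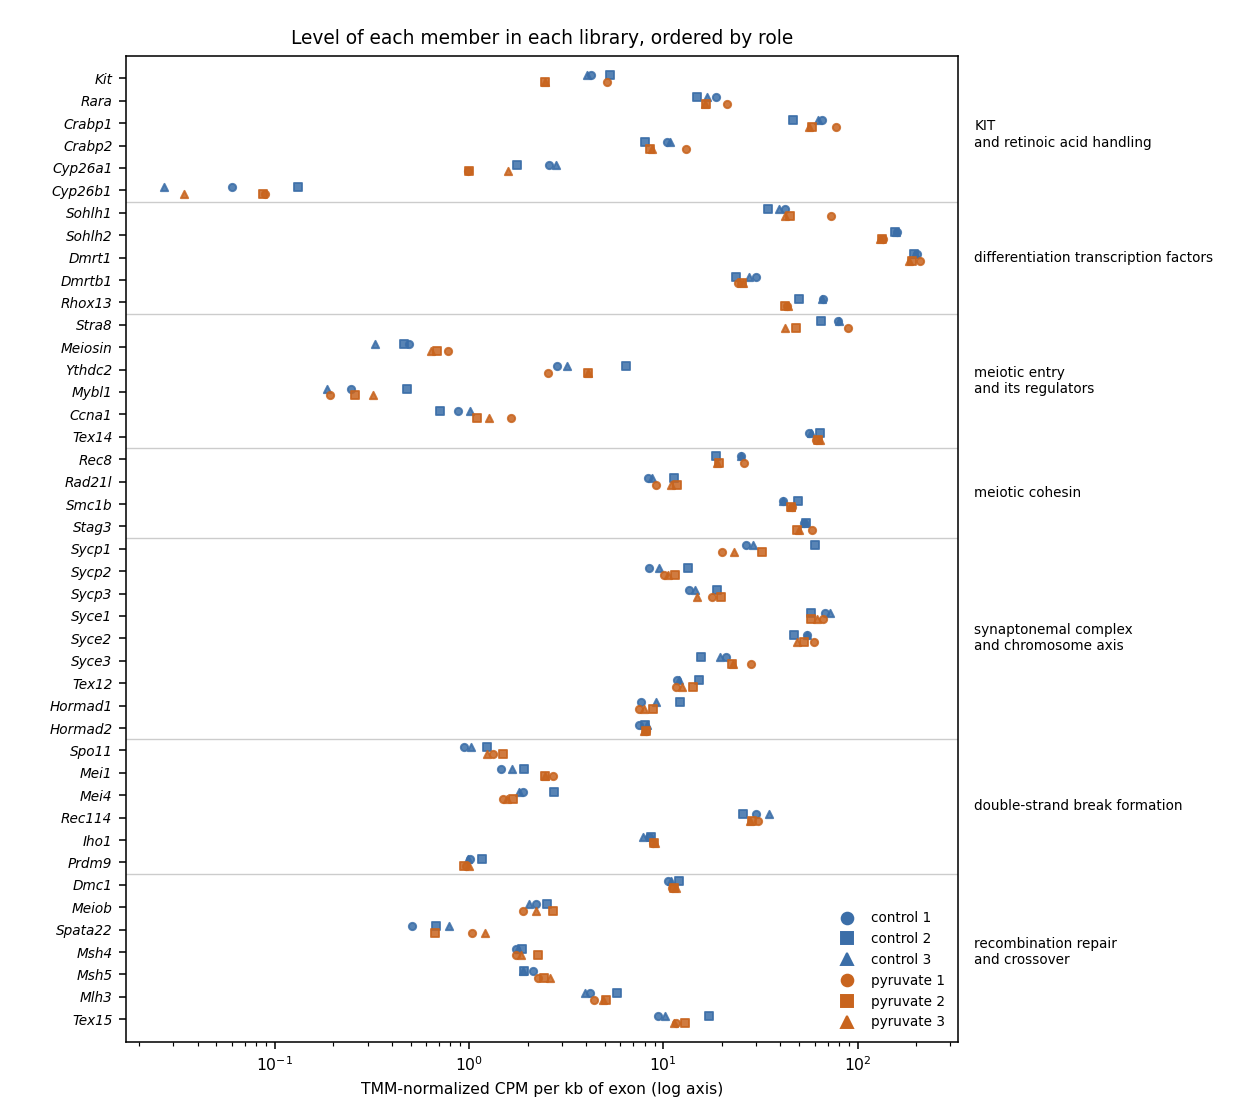
Level of each of the 43 members (vertical axis, grouped by role) in CPM per kb of exon on a log axis, with 1 point per library. Dmrt1 and Sohlh2 lie at the right, Mybl1 and Cyp26b1 at the left, and the media overlap for most genes.

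The comparison of pyruvate with complete medium asked which of these genes differ between the media. With all libraries, the quasi-likelihood test of edgeR (Benjamini-Hochberg adjustment, threshold 0.05) called 0 of the 43 members (lowest adjusted p = 0.134). It called 0.0536% of the 14912 tested genes, 0.0201% as higher and 0.0335% as lower in pyruvate medium. Of the 43, 10 had an unadjusted p under 0.05 in edgeR (23.3%), against 14.4% of all tested genes; 6 were higher and 4 lower in pyruvate medium, against 7.94% and 6.44% of all tested genes. With 1 library left out, edgeR called 4 members without control replicate 2 (9.3%), namely Cyp26a1, Sohlh2 and Rhox13 as lower and Mei1 as higher, where it called 4.16% of all genes. It called 0 members without any other library, where few genes of the table passed. That share was 0.0197% on leaving out control replicate 1, 0.00654% for control replicate 3, 0.00666% for pyruvate replicate 1 and 0% for pyruvate replicates 2 and 3. DESeq2 called 3 members with all libraries, Cyp26a1 and Rhox13 lower and Mei1 higher, where it called 2.13% of all genes. Log2 fold changes, always pyruvate minus control, were above 0 for 23 members and below 0 for 20. Their median was 0.023, against -0.01 over all tested genes, and 25 members lay within 0.2 of 0. The groups did not overlap for 12 members (27.9%; 22.5% of all tested genes), with pyruvate above control in 8 and below in 4. The background for those directions was 11.9% and 10.6%.

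**Figure D2:**
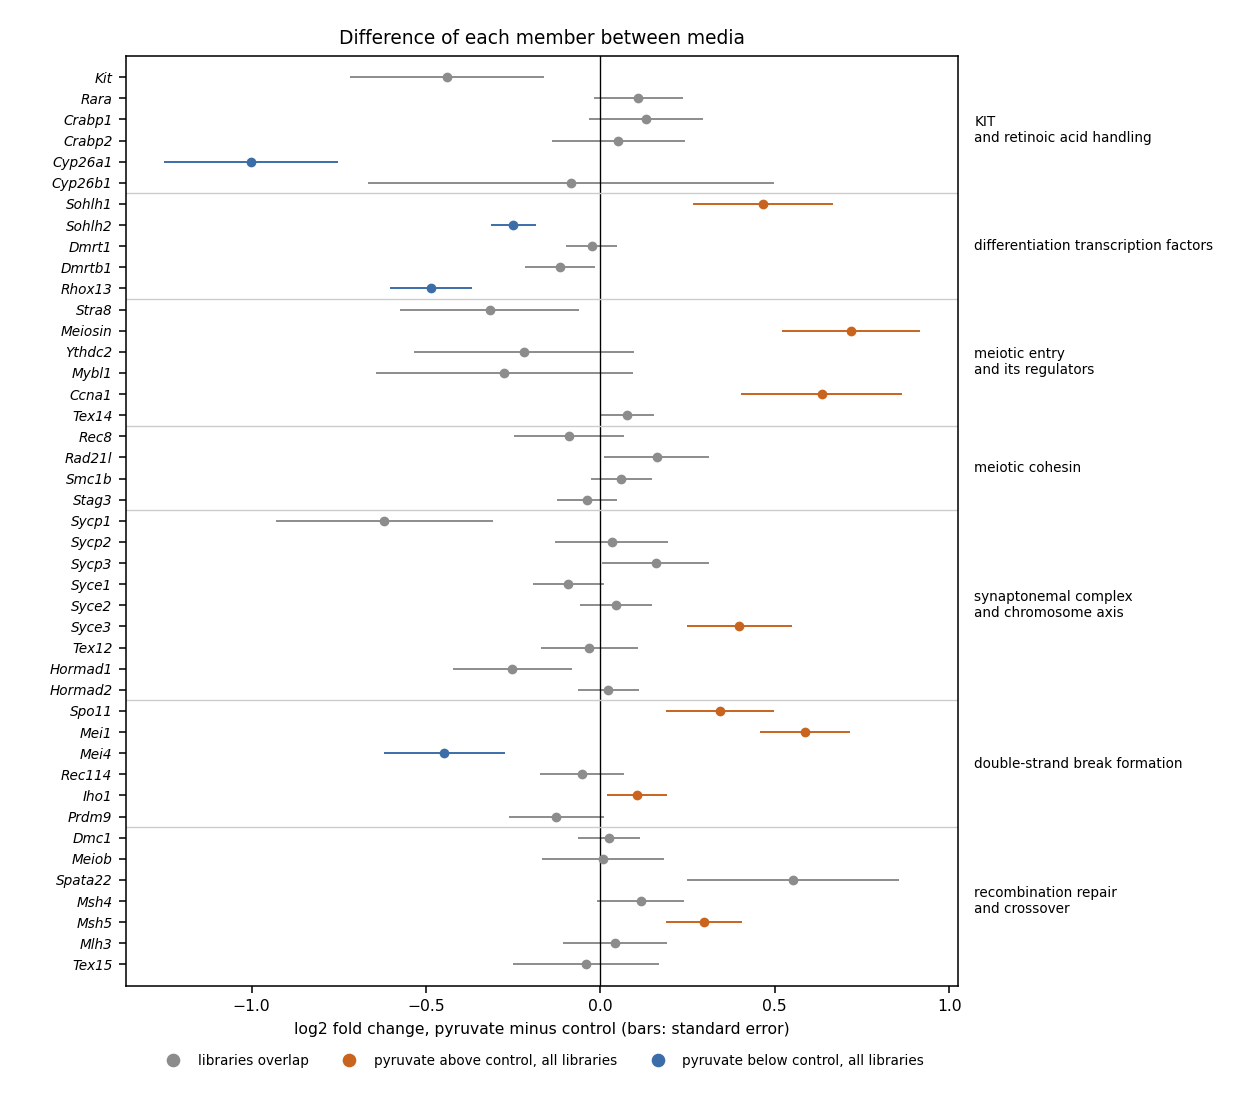
Log2 fold change of each member (pyruvate minus control, horizontal axis) with its standard error as a bar, grouped by role. Orange and blue mark the 12 members whose groups did not overlap; Cyp26a1 lies furthest to the left at -1.002 and Meiosin furthest to the right at 0.72.

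Among the 6 genes of KIT and retinoic acid handling, Cyp26a1, the enzyme that degrades retinoic acid, was lower in every pyruvate library. It stood at 5.10, 3.50 and 5.54 CPM in control replicates 1, 2 and 3 and at 1.95, 1.98 and 3.14 CPM in pyruvate replicates 1, 2 and 3. The lowest control library lay above the highest pyruvate library, although all values rest on 49 to 116 counts. The difference was -1.002 in log2 (SE 0.25, adjusted p = 0.157 in edgeR), for means of 4.71 ± 1.08 and 2.36 ± 0.68 CPM (SD, n = 3 per group). Cyp26a1 (ENSMUSG00000024987, chromosome 19, 37697798 to 37701536) passed as lower without control replicate 2 (log2 -1.19, adjusted p = 0.0211 in edgeR). In DESeq2 it passed with all libraries (adjusted p = 0.0192).

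Kit, the receptor that marks differentiating spermatogonia, did not separate the media. Its level was 37.9, 47.05 and 36.1 CPM in control replicates 1 to 3 and 45.5, 21.8 and 21.8 CPM in pyruvate replicates 1 to 3. Pyruvate replicates 2 and 3 lay below every control, and pyruvate replicate 1 lay among the controls. For Kit the log2 fold change was -0.44 (SE 0.28, adjusted p = 0.509 in edgeR) and became -0.88 without pyruvate replicate 1 (adjusted p = 0.226). Without pyruvate replicate 2 or 3 it was -0.26 in each case.

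Rara, a retinoic acid receptor, and the cellular retinoic acid binding protein genes Crabp1 and Crabp2 were each highest in pyruvate replicate 1. Crabp1, the highest of the 6 per length, stood at 52.5, 37.5 and 50.2 CPM in the controls and 61.7, 46.7 and 45.01 CPM in pyruvate medium, so that the groups overlapped. Log2 fold changes of Rara, Crabp1 and Crabp2 were 0.11, 0.13 and 0.052, and all were below 0 without pyruvate replicate 1 (-0.019, -0.022 and -0.17). Cyp26b1, a second retinoic acid degrading enzyme that is mainly a product of somatic cells in the testis, had 3 to 18 counts per library and cannot be compared at this depth.

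Of the 5 differentiation transcription factors, Sohlh2 and Rhox13 were lower and Sohlh1 higher in every pyruvate library. Sohlh2, a bHLH factor needed for spermatogonial differentiation, stood at 377, 369 and 372 CPM in control and 319, 315 and 307 CPM in pyruvate medium. Replicates lay within a few percent of each other and the groups were clearly apart, yet the change was small, at log2 -0.25 (SE 0.064, adjusted p = 0.163 in edgeR). Rhox13, an X-linked homeobox gene of differentiating germ cells, stood at 58.3, 43.8 and 57.1 CPM in control and 38.1, 37.2 and 38.3 CPM in pyruvate medium. The pyruvate libraries nearly coincided, and control replicate 2 was the control nearest to them. Rhox13 had a log2 fold change of -0.49 (SE 0.12, adjusted p = 0.154).

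Both genes passed as lower without control replicate 2, Rhox13 (ENSMUSG00000050197, chromosome X, 38121219 to 38129967) at log2 -0.61 (adjusted p = 0.00372 in edgeR) and Sohlh2 (ENSMUSG00000027794, chromosome 3, 55182028 to 55209957) at -0.26 (adjusted p = 0.0316). Sohlh1, the partner of SOHLH2, went the other way, at 54.3, 44.5 and 50.6 CPM in control and 93.9, 57.8 and 54.5 CPM in pyruvate medium. Pyruvate replicate 1 carried most of that difference, and pyruvate replicate 3 was level with control replicate 1. Sohlh1 had a log2 fold change of 0.47 (adjusted p = 0.342 in edgeR), and 0.18 without pyruvate replicate 1.

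Dmrt1, which holds spermatogonia out of meiosis and is the most abundant member per length, hardly differed between libraries. It stood at 524, 506 and 510 CPM in control and 542, 495 and 477 CPM in pyruvate medium (log2 -0.025, SE 0.074, adjusted p = 0.902 in edgeR). Its sign turned with library totals as the scaling, at 0.00596. Dmrtb1, a relative that governs the step from mitosis to meiosis, lay at 49.4 to 62.2 CPM over the 6 libraries, with a log2 fold change of -0.12.

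**Figure D3:**
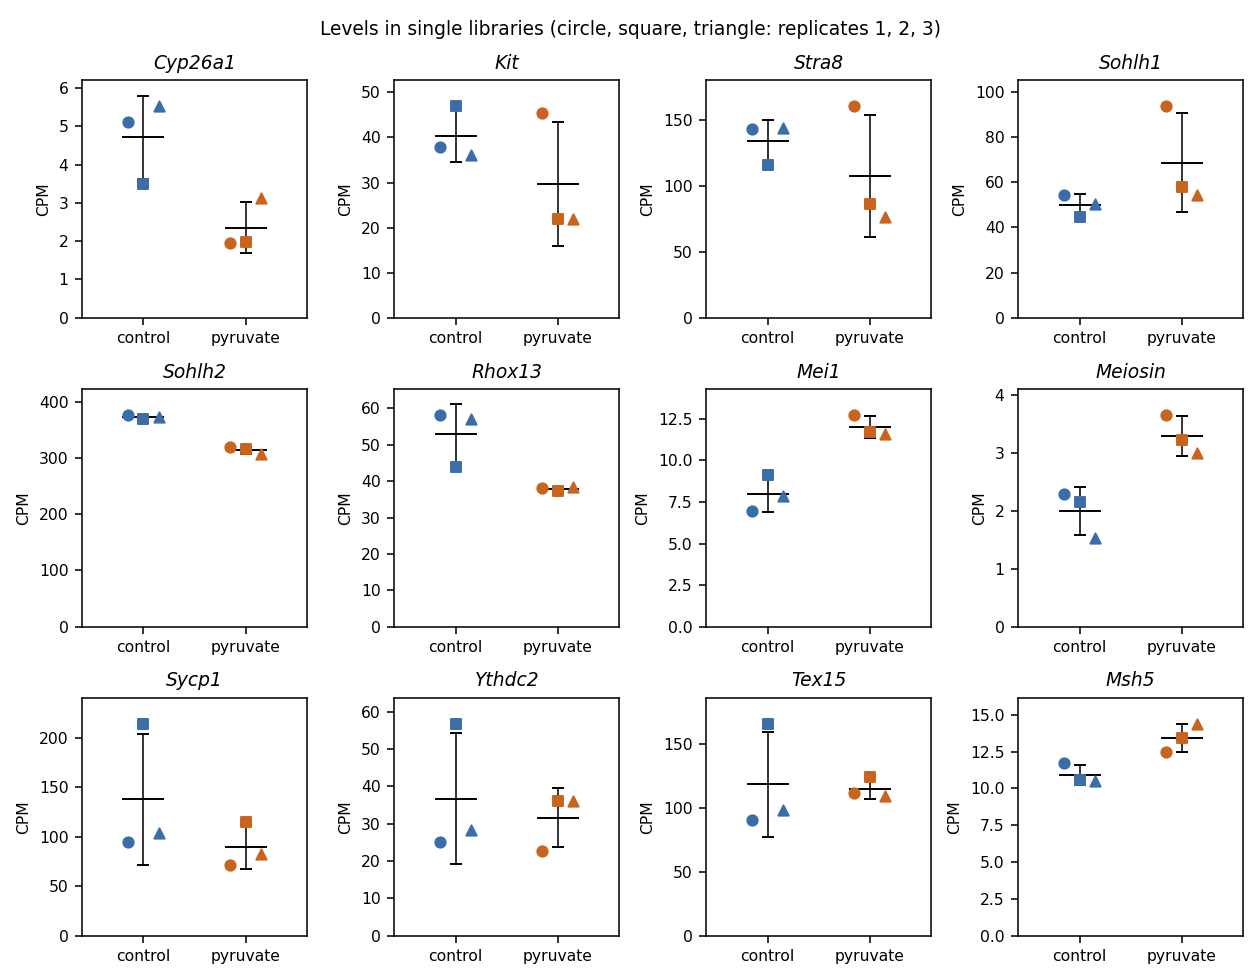
CPM of 12 members in each library (points; circles, squares and triangles are replicates 1, 2 and 3), with the group mean and SD in black. Kit, Stra8 and Sohlh1 show pyruvate replicate 1 above the other pyruvate libraries, and Sycp1, Ythdc2 and Tex15 show control replicate 2 above all others.

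Among the 6 genes of meiotic entry and its regulators, Stra8 resembled Kit. Stra8 (ENSMUSG00000029848, chromosome 6, 34920163 to 34939344) stood at 144, 116 and 144 CPM in control and 161, 86.4 and 76.4 CPM in pyruvate medium. Pyruvate replicates 2 and 3 lay below all controls and pyruvate replicate 1 above them all. For Stra8 the log2 fold change was -0.32 (SE 0.26, adjusted p = 0.616 in edgeR), -0.72 without pyruvate replicate 1 (adjusted p = 0.271), and -0.18 and -0.12 without pyruvate replicate 2 or 3. Meiosin, its partner, was much scarcer, with 32 to 92 counts per library. It stood at 2.30, 2.16 and 1.53 CPM in control and 3.67, 3.22 and 3.00 CPM in pyruvate medium, every pyruvate library above every control. Meiosin had a log2 fold change of 0.72 (SE 0.20, adjusted p = 0.181 in edgeR), and the lowest adjusted p in any fit with a library left out was 0.0851, without control replicate 2.

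Ccna1, the germ-cell cyclin A, was likewise low and higher in each pyruvate library, at 1.30 to 1.86 CPM against 2.02 to 3.03 CPM (log2 0.63, adjusted p = 0.272 in edgeR), and it shares exon sequence with 4931419H13Rik, an opposite-strand gene. Ythdc2, an RNA-binding helicase needed to leave the mitotic programme, stood at 25.2, 56.9 and 28.2 CPM in control and 22.6, 36.1 and 36.2 CPM in pyruvate medium. Control replicate 2 was far above the rest, and without it the log2 fold change turned from -0.22 to 0.24. Mybl1, a master regulator of pachytene genes, stood at 1.33, 2.59 and 1.003 CPM in control and 1.04, 1.40 and 1.73 CPM in pyruvate medium. Its log2 fold change of -0.275 turned to 0.235 without control replicate 2. Neither passed without that library (edgeR adjusted p = 0.483 for Ythdc2 and 0.706 for Mybl1). Tex14, which keeps the bridges between germ cells open, lay between 282 and 322 CPM (log2 0.076).

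The 4 meiotic cohesin genes showed no difference between media that the test called. Stag3, the most abundant per length, stood at 305, 313 and 306 CPM in control and 334, 279 and 287 CPM in pyruvate medium (log2 -0.038, SE 0.085, adjusted p = 0.866 in edgeR). Rad21l had the lowest p of the group, at 13.8, 18.9 and 14.4 CPM in control and 15.2, 19.4 and 18.1 CPM in pyruvate medium (log2 0.16, SE 0.15, adjusted p = 0.664). Its difference was 0.32 without control replicate 2 and 0.26 without pyruvate replicate 1, and 0.079 and 0.083 without control replicate 1 or pyruvate replicate 2. Smc1b and Rec8 stood at log2 0.06 and -0.09. Summed over the 4 genes, the level was 559 to 585 CPM in the control libraries and 539 to 613 CPM in the pyruvate libraries.

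The 9 genes of the synaptonemal complex and chromosome axis included the member with the largest deviation of control replicate 2. Sycp1, which forms the transverse filaments, stood at 95.1, 214 and 103 CPM in control and 71.6, 115 and 82.6 CPM in pyruvate medium. Control replicate 2 was far above the other controls, and pyruvate replicate 1 was lowest. Sycp1 had a log2 fold change of -0.62 (SE 0.31, adjusted p = 0.411 in edgeR), which came to -0.15 without control replicate 2; it passed as lower with the replicate number as a block (-0.55, adjusted p = 0.0403), where 1.78% of genes passed. Syce3, a small central element protein, had the lowest p of the group, at 11.6, 8.60 and 10.8 CPM in control and 15.7, 12.5 and 12.6 CPM in pyruvate medium. Every pyruvate library exceeded every control, but the log2 fold change of 0.40 (SE 0.15) had an adjusted p of 0.287 in edgeR. Syce1, the most abundant of the group per length, stood at 99.7, 84.2 and 105 CPM in control and 96.8, 84.4 and 90.0 CPM in pyruvate medium (log2 -0.092). The axis genes Sycp2, Sycp3, Hormad1 and Hormad2 and the central element genes Syce2 and Tex12 overlapped between media, with log2 fold changes from -0.25 for Hormad1 to 0.16 for Sycp3. Without control replicate 2 these were -0.047 for Hormad1 and 0.32 for Sycp3. Exons of Sycp3 overlap Chpt1 on the opposite strand, so its counts are uncertain.

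Of the 6 genes of double-strand break formation, 4 had groups that did not overlap (22.5% of all tested genes), 3 with pyruvate above and 1 with pyruvate below (11.9% and 10.6% of all tested genes). Mei1, needed to form the breaks, stood at 6.94, 9.11 and 7.88 CPM in control and 12.8, 11.7 and 11.6 CPM in pyruvate medium. All pyruvate libraries lay above all controls, and Mei1 had the lowest p of any member (log2 0.59, SE 0.13, adjusted p = 0.134 in edgeR). Mei1 (ENSMUSG00000068117, chromosome 15, 82069996 to 82126814) passed as higher in DESeq2 (adjusted p = 0.0210) and, without control replicate 2, in edgeR (log2 0.70, adjusted p = 0.0189). Spo11, which cuts the DNA, stood at 3.68, 4.83 and 4.01 CPM in control and 5.18, 5.86 and 4.86 CPM in pyruvate medium (log2 0.34, adjusted p = 0.364 in edgeR). Pyruvate replicate 3 exceeded control replicate 2 only narrowly.

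Mei4, a partner of REC114 and IHO1 on the chromosome axis, lay the other way, at 7.82, 11.2 and 7.45 CPM in control and 6.14, 6.91 and 6.46 CPM in pyruvate medium (log2 -0.45, adjusted p = 0.300 in edgeR). Without control replicate 2 the difference of Mei4 was -0.23 (adjusted p = 0.345). Iho1 stood at 24.5, 25.1 and 22.6 CPM and 25.5, 25.95 and 26.2 CPM (log2 0.11, adjusted p = 0.618), a separation of the groups by less than 1 CPM. Rec114, the most abundant of the group per length, stood at 38.2, 32.9 and 44.8 CPM in control and 39.3, 36.7 and 35.8 CPM in pyruvate medium, and its exons overlap Nptn on the opposite strand. Prdm9, which places the breaks by marking histones, lay at 4.07 to 5.03 CPM in all libraries (log2 -0.13).

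Of the 7 genes of recombination repair and crossover, 6 had log2 fold changes above 0, as did 7166 of the 14912 tested genes, and the median of the 7 was 0.041. The tally changed with single libraries: 7 were above 0 without control replicate 2 (median 0.23), 4 without control replicate 3 (0.013), and 3 without control replicate 1 (-0.010) or pyruvate replicate 2 (-0.0047). Msh5, which with MSH4 stabilises crossover intermediates, had the lowest p, at 11.7, 10.6 and 10.5 CPM in control and 12.5, 13.4 and 14.4 CPM in pyruvate medium. The groups did not overlap, yet the adjusted p was 0.276 in edgeR (log2 0.30, SE 0.11). Tex15, needed to load recombinases and the most abundant of the group per length, stood at 90.6, 166 and 98.1 CPM in control and 112, 124 and 109 CPM in pyruvate medium. Control replicate 2 again exceeded all others, and without it every pyruvate library lay above both controls. For Tex15 the log2 fold change turned from -0.042 (adjusted p = 0.945 in edgeR) to 0.28 (adjusted p = 0.0626) without that library. Dmc1, the meiotic recombinase, lay between 25.7 and 29.3 CPM in all libraries (log2 0.024, SE 0.089). Msh4, Mlh3 and Meiob stood at log2 0.12, 0.041 and 0.008, and Spata22 at 0.55 with 14 to 34 counts per library. Exons of Spata22 overlap those of Gm49340 on the same strand and exons of Msh4 those of Gm24395 on the opposite strand.

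Across the members, control replicate 2 was the highest of the 6 libraries for 15 genes (34.9%; 31.2% of all tested genes) and pyruvate replicate 1 for 13 (30.2%; 24.5% of all tested genes). The 15 included Sycp1, Sycp2, Hormad1, Tex12, Tex15, Ythdc2, Mybl1, Mlh3, Mei4 and Kit. The 13 included Rara, Crabp1, Crabp2, Stra8, Meiosin, Sohlh1, Rec8, Syce2, Syce3 and Mei1. The 6 KIT and retinoic acid genes had a median deviation of 0.38 in pyruvate replicate 1 against -0.13 in each of the other pyruvate libraries and -0.057 to 0.11 in the controls. The 9 synaptonemal complex and axis genes had a median deviation of -0.12, 0.199 and -0.038 in control replicates 1, 2 and 3.

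**Figure D4:**
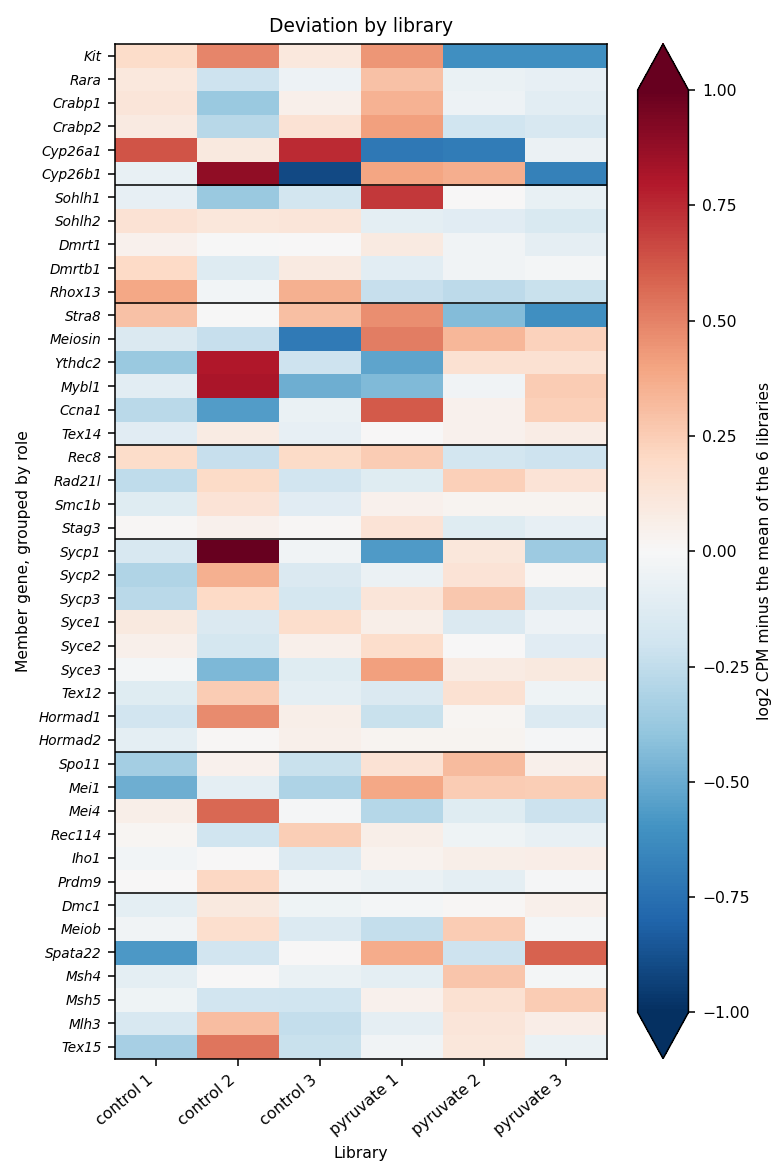
Deviation of each member from its 6-library mean in log2 CPM (red above, blue below; colours saturate at 1) by library, with black lines between roles. Red in control replicate 2 falls on genes such as Sycp1, Ythdc2 and Tex15, and red in pyruvate replicate 1 on Kit, Stra8, Sohlh1 and Crabp1.

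GC content moved with both of these libraries. Over the 43 members, Spearman's rho between GC content of the longest transcript and the deviation was -0.70 in control replicate 2 and 0.51 in pyruvate replicate 1, and 0.58 in control replicate 1. The points share their libraries and are genes, not replicates. Sycp1 has 34.6% GC, Tex15 37.4% and Ythdc2 42.0%, while Rara has 59.2%, Sohlh1 58.1%, Stra8 50.9% and Kit 48.5%. With each library's GC and length trend removed, a setting added after seeing the data, edgeR called 3 members, all lower: Rhox13 (log2 -0.54, adjusted p = 0.0108), Sohlh2 (-0.25, adjusted p = 0.0341) and Cyp26a1 (-1.04, adjusted p = 0.0449). It called 2.61% of all genes in that fit, and 18 members had an unadjusted p under 0.05 (41.9%; 20.3% of all genes). Of these 18, 12 were higher and 6 lower in pyruvate medium, against 8.81% and 11.5% of all genes. Mei1 reached adjusted p = 0.0798 there, Sycp1 stood at -0.34, and Kit and Stra8 kept log2 fold changes of -0.43 and -0.35 (adjusted p = 0.408 and 0.409).

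**Figure D5:**
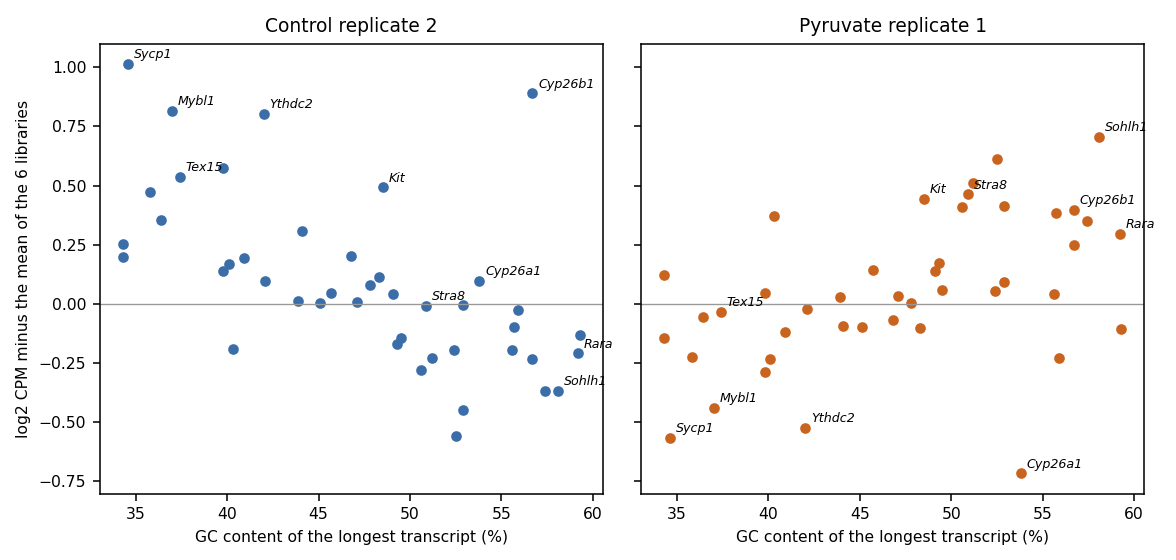
Deviation of each member in log2 CPM against the GC content of its longest transcript, for control replicate 2 (left) and pyruvate replicate 1 (right), with 1 point per gene. In control replicate 2 the AT-rich genes Sycp1, Mybl1 and Tex15 lie high; in pyruvate replicate 1 Sohlh1 lies high, and Cyp26a1 lies low despite 53.8% GC.

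Genes of the same pathways outside the 43 were counted in 3 further lists. Of 25 further genes of retinoid handling and spermatogonial differentiation 21 were tested, and edgeR called 0 with all libraries, with 7 at an unadjusted p under 0.05, 6 higher and 1 lower (14.4% of all tested genes, 7.94% higher and 6.44% lower). DESeq2 called 4 higher and 1 lower, where it called 2.13% of all tested genes. The groups did not overlap for 11 of the 21 (52.4%, against 22.5% of all tested genes). Pyruvate lay above in 9 and below in 2 of these (42.9% and 9.52%, against 11.9% and 10.6% of all tested genes). Rxrg, a partner receptor of the retinoic acid receptors, stood at 58.2, 46.4 and 55.3 CPM in control and 25.4, 34.95 and 32.2 CPM in pyruvate medium. The groups were well apart (log2 -0.79, SE 0.14, adjusted p = 0.0954 in edgeR), and Rxrg passed as lower without control replicate 2 (adjusted p = 0.00587) and in DESeq2 (adjusted p = 0.000142). Rdh11, a retinol dehydrogenase, stood at 12.4, 12.2 and 11.8 CPM against 19.2, 17.5 and 16.3 CPM (log2 0.54, adjusted p = 0.110 in edgeR). Neurog3, a transcription factor of progenitor spermatogonia, stood at 4.69, 5.73 and 4.87 CPM against 11.1, 8.65 and 7.73 CPM (log2 0.84, adjusted p = 0.116), and its exons overlap Fam241b on the opposite strand. Rdh11 and Neurog3 both passed as higher in DESeq2 (adjusted p = 0.00723 and 0.00358).

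Of 38 other meiosis genes 36 were tested, edgeR called 0, and 10 had an unadjusted p under 0.05, 5 in each direction (14.4% of all tested genes, 7.94% higher and 6.44% lower); DESeq2 called 0 as well. Zfp541, a zinc finger protein of meiotic prophase, stood at 2.96 to 3.30 CPM in control and 4.58 to 5.14 CPM in pyruvate medium (log2 0.63, adjusted p = 0.128 in edgeR). Trip13, which strips HORMAD proteins from paired axes, stood at 89.8 to 97.3 and 72.4 to 79.8 CPM (log2 -0.27, adjusted p = 0.190). Ccnb1ip1, a crossover ubiquitin ligase also called HEI10, stood at 21.4 to 23.0 and 14.9 to 18.3 CPM (log2 -0.36, adjusted p = 0.20), and its exons overlap Rpph1 on the same strand.

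Of 21 genes of the Polycomb variant and other repressors of meiotic genes, all tested, edgeR and DESeq2 called 0. An unadjusted p under 0.05 in edgeR was found for 3, all lower (14.4% of all tested genes, 7.94% higher and 6.44% lower). The groups did not overlap for 8 (38.1%, against 22.5% of all tested genes). Pyruvate lay above in 2 and below in 6 of these (11.9% and 10.6% of all tested genes). Log2 fold changes were below 0 for 16, with a median of -0.099 against -0.01 over all tested genes, but without control replicate 2 the median was -0.029 and 12 were below 0. Uhrf1, which guides DNA methylation after replication, stood at 965, 935 and 980 CPM in control and 715, 777 and 847 CPM in pyruvate medium (log2 -0.30, adjusted p = 0.175 in edgeR). Without control replicate 2 Uhrf1 passed as lower (-0.32, adjusted p = 0.0380 in edgeR). It also passed as lower with GC and length trends removed (-0.36, adjusted p = 0.0425 in edgeR). Cbx1 and Yaf2, chromatin proteins of the list, stood at log2 -0.22 each (adjusted p = 0.236 and 0.304).

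Markers of germ cells and of undifferentiated spermatogonia, the labelled cell type, were abundant as sums. The filter of 5 CPM in 3 libraries kept 8 of 9 and 17 of 20 genes. All 9 germ cell genes were tested and edgeR called 0, with 2 higher and 0 lower at an unadjusted p under 0.05 (7.94% and 6.44% of all tested genes). DESeq2 called 1 of them as higher, where it called 2.13% of all tested genes. Summed over 9 germ cell genes the level was 2104 to 2632 CPM in control and 2153 to 2309 CPM in pyruvate libraries, and over 20 genes of undifferentiated spermatogonia 4017 to 4345 and 3528 to 4157 CPM, lowest in pyruvate replicate 1. Of the latter list 19 were tested and edgeR called 0, with 7 above 0 and 12 below (48.1% of all tested genes were above 0). An unadjusted p under 0.05 in edgeR was found for 2 higher and 5 lower (7.94% and 6.44% of all tested genes). The groups did not overlap for 8 (42.1%, against 22.5% of all tested genes). Pyruvate lay above in 2 and below in 6 of these (11.9% and 10.6% of all tested genes). Without pyruvate replicate 1 the log2 fold changes of 11 genes were above 0 and of 8 below. Nanos2 stood at 7.08, 5.70 and 6.88 CPM in control and 11.6, 8.42 and 8.001 CPM in pyruvate medium (log2 0.52, adjusted p = 0.239 in edgeR). Zbtb16 stood at log2 0.24 and passed as higher without control replicate 2 (0.45, adjusted p = 0.00813 in edgeR). Eomes stood at -0.72 and passed as lower in DESeq2 (adjusted p = 0.0497), and Pax7 at -0.43, which passed as lower with GC and length trends removed (adjusted p = 0.0418 in edgeR). These 4 were chosen after their values were seen. Of 15 markers of later germ cells 7 were tested; Prm1, Prm2 and Tnp2, the sperm chromatin genes, had 0 counts in all libraries, while Tex101, also expressed in spermatogonia, made up 180 to 246 CPM of a sum of 216 to 282. Fibroblast and feeder markers summed to 423 to 484 CPM in control and 404 to 437 in pyruvate medium, mostly Fn1. Col1a1 stood at 48.5 to 53.0 and 57.7 to 82.0 CPM and was highest in pyruvate replicate 1. Of the 12 genes of that list 10 were tested and edgeR called 0, with 3 log2 fold changes above 0 and 7 below. Without control replicate 2, 5 were above 0 and 5 below. The groups did not overlap for 4 (40%, against 22.5% of all tested genes). Pyruvate lay above in 1 and below in 3 of these (11.9% and 10.6% of all tested genes). Thy1, a surface protein that spermatogonia also carry, stood at log2 -0.62 (adjusted p = 0.124 in edgeR); it passed as lower in DESeq2 (adjusted p = 0.0151), without control replicate 2 (0.0189), with the replicate block (0.0430) and with trends removed (0.0232). Sertoli markers summed to 25.7 to 31.97 CPM with Fshr at 0, Leydig markers to 2.64 to 4.045 with Hsd3b1, Hsd3b6, Insl3 and Lhcgr at 0, macrophage and immune markers to 5.66 to 8.69 with Adgre1 at 0, and endothelial markers to 28.3 to 36.8 with Emcn at 0. The part of other cell types in the members' levels was not tested.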

How the data were processed

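Counts per gene were deposited by the authors as whole numbers with no normalization. The submitters' processing notes list STAR 2.7.11a, cutadapt 4.6, HTSeq 2.0.5, bcl2fastq 2.20 and the mm10 build. Per the labels' protocols the libraries came from a stranded mRNA kit. The counting's strand setting and annotation release were not given in the sources used here, and overlapping genes are therefore named as uncertain. There were 3 columns that matched none of the samples, and these were not used; 0 rows lacked a gene identifier.

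Analysis used edgeR 4.0.16 in R 4.3.3. Low genes were removed by filterByExpr (minimum count 10), scaled by TMM and tested with the robust quasi-likelihood test without covariates, with Benjamini-Hochberg adjustment over all 14912 tested genes at 0.05. Standard errors are log2 fold changes over the root of F. Levels are TMM-normalized CPM, per kb of merged exons where genes are compared. Log2 CPM used a prior count of 2. Positions, exon lengths and GC content are those of GENCODE M21 (GRCm38), and promoters those of RefSeq. Steps were tested on simulated counts.

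Alternatives were other scalings and filters, DESeq2 1.42.0, limma 3.58.1 (voom), a block for the replicate number, and the omission of each library in turn. Removal of GC and length trends (splines with 5 degrees of freedom) and the retinoic acid half-sites were added after seeing the data. The members and lists were chosen with earlier results of these data known. Members given by library are, by role, those of lowest p and of highest level per length and those past the threshold with all libraries or with 1 left out; others, such as Kit, Sohlh1, Sycp1 and Ythdc2, were chosen after their values were seen. Up to 3 genes of lowest p with at least 1 CPM are named per further list. Library pairs within groups differed by more than sampling noise (chi-square per gene 3.11 to 47.0).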

Additional observations from a re-analysis of the deposited data

How the results depend on the processing

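The number of genes called over the whole table was 8 and moved to 14 with library totals, 15 with upper-quartile factors, 83 with no filter, 317 in DESeq2, 265 with the replicate number as a block, 389 with GC and length trends removed, and 0 to 625 with a library left out. The number of members called was 0 and became 3 in DESeq2 (Cyp26a1, Rhox13, Mei1), 3 with the block (Cyp26a1, Rhox13, Sycp1), 3 with trends removed and 0 to 4 with a library left out, where the 4 came without control replicate 2. The number called in the 3 further pathway lists was 0 and became 2 with no filter, 5 in DESeq2, 7 with the block, 5 with trends removed and 0 to 5 with a library left out. It stayed 0 for the members and those lists with library totals, upper-quartile factors, size factors from DESeq2, the filter of 5 CPM in 3 libraries and limma-voom. The members' median log2 fold change of 0.023 lay between -0.019 and 0.10 with a library left out.

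Deviations of same-numbered libraries correlated at 0.31, 0.31 and -0.073 over genes for numbers 1, 2 and 3. Those of differently numbered libraries correlated at -0.385 to 0.213. Whether the replicate numbers pair the libraries was not tested, and the block is given as an alternative only.

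For 25 members the sign held in every alternative; the other 18 had log2 fold changes of at most 0.275 in size. The sign turned for Cyp26b1 (0.062), Meiob (-0.0041) and Tex15 (0.0055) in limma-voom, for Dmrt1 (0.00596) and Tex12 (0.0013) with library totals, for Tex15 (0.0082) with the block, and for Tex12 (0.21) and Tex15 (0.17) with trends removed. With a library left out, the log2 fold change ranged from -0.019 to 0.19 for Rara, -0.022 to 0.22 for Crabp1, -0.17 to 0.16 for Crabp2, -0.45 to 0.70 for Cyp26b1, -0.073 to 0.014 for Dmrt1, -0.43 to 0.24 for Ythdc2, -0.52 to 0.23 for Mybl1, -0.12 to 0.012 for Stag3, -0.095 to 0.25 for Sycp2, -0.0302 to 0.11 for Syce2, -0.12 to 0.10 for Tex12, -0.016 to 0.056 for Hormad2, -0.16 to 0.0703 for Rec114, -0.015 to 0.081 for Dmc1, -0.14 to 0.13 for Meiob, -0.0077 to 0.20 for Msh4, -0.057 to 0.23 for Mlh3 and -0.20 to 0.28 for Tex15. Adjusted p over all alternatives that gave a value ran from 0.0192 to 0.418 for Cyp26a1, 0.00372 to 0.421 for Rhox13, 0.0316 to 0.434 for Sohlh2 and 0.0189 to 0.394 for Mei1. The filter of 5 CPM left 34 members and removed Cyp26a1 and Meiosin. The cause of these changes was not tested.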
